A study of Laccaria bicolor with 18 samples.

Results

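The change in gene expression from medium to late caps of basidiocarps of the ectomycorrhizal mushroom *Laccaria bicolor* is described here, using the 3 late cap and the 3 medium cap libraries, 6 of the 18 libraries of the series. All libraries are from strain S238N, and the labels name no treatment. The basidiocarps grew beside inoculated Douglas fir seedlings in a nursery, caps and stipes were parted at an early, a medium and a late stage and frozen, and the labels call the 3 libraries of a group biological replicates. The labels give a stage but no age in days, and do not name how many basidiocarps went into a library. The late and medium stipes, 6 further libraries, served as a comparison at the same stages.

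As background, the cap of a mushroom carries the gills, on which basidia undergo meiosis and form spores, while the stipe lifts the cap. Growth of a cap is known to rest largely on the expansion of existing hyphae, whose walls of chitin and beta-glucan are cut, loosened and rebuilt by secreted enzymes. Aging caps of many species shed spores and then break down. A cap is a mixture of tissues, so in these bulk libraries fewer cells of a type and less RNA per cell cannot be told apart.

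Between 38976106 and 90888294 reads per library were counted over 23130 gene models, and 16485 gene models passed the filter on low counts and were tested. Levels are given as CPM (counts relative to library size, scaled by edgeR's TMM method) for libraries 1, 2 and 3 of a group in this order, or as mean ± SD over n = 3 libraries, and RPKM (corrected also for transcript length) is used where levels of different gene models are compared. Late caps 2 and 3 were nearly alike, with a biological coefficient of variation between them of 4.02%, against 9.09% and 9.58% between each of them and late cap 1. They differed by more than sampling noise and were kept apart, though this does not show that they come from different basidiocarps. Medium cap 3 stood apart from medium caps 1 and 2, with a coefficient of 32.3% and 35.0% against 20.3% between the other two. As a check on stipe tissue in the caps, eln3 (gene model 331690), which is needed for stipe elongation in the mushroom *Coprinopsis cinerea*, was at 268 ± 62.0 CPM in medium caps and 177 ± 5.81 CPM in late caps, against 149 CPM in medium stipes and 36.2 CPM in late stipes on average. It was higher in caps than in stipes at both stages and so did not mark stipe tissue here.

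Among changes of more than 1 on the log2 scale, rises outnumbered falls. In late caps 1512 gene models were higher than in medium caps (9.17% of those tested) and 958 were lower (5.81%), where a call needs a change of more than 1 on the log2 scale and an adjusted p under 0.05 from the quasi-likelihood test of edgeR, adjusted after Benjamini and Hochberg. Of all calls, 61.2% were rises. Without a minimum fold change the balance was the other way, with 2842 gene models higher and 3346 lower. The split widened with the size of the change, with 318 rises (1.93%) and 111 falls (0.673%) beyond a log2 fold change of 2, and 83 rises and 30 falls beyond 3. The median log2 fold change over all gene models tested was -0.055 after TMM scaling, which centres the changes of most gene models near 0, so a shift shared by all gene models could not be seen. Rises started from lower levels, with a median of 5.06 CPM in medium caps and 14.9 CPM in late caps, whereas the gene models that fell had a median of 21.2 CPM in medium caps and 8.50 CPM in late caps. Libraries of the groups did not overlap for 1504 of the rises and 914 of the falls. Over all gene models tested, late caps lay wholly above medium caps in 25.2% and wholly below in 27.1%. Without medium cap 2 the number of falls went from 958 to 548, of which 520 were also called with it. With late caps 2 and 3 summed, and medium stipes 1 and 2 summed, 1530 gene models rose and 765 fell in caps.

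**Figure D1:**
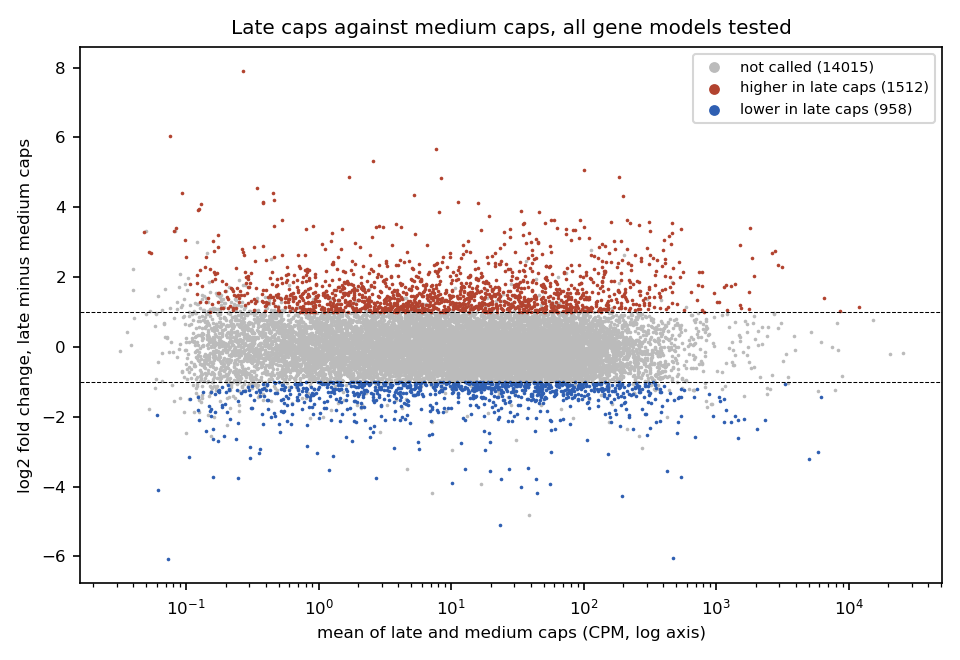
Log2 fold change of late minus medium caps (y axis) against the mean level of both groups in CPM (x axis, log scale) for each of the 16485 gene models tested, with 1512 called higher in red and 958 called lower in blue. The dashed lines mark the bound of 1 on the log2 scale. Rises reach further from the line of no change than falls, and both are found over the whole range of levels.

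The rises took up much of the late cap transcriptome. Gene models called higher held 6.71%, 5.21% and 6.76% of the reads of medium caps 1 to 3, and 20.6%, 19.3% and 19.1% of those of late caps 1 to 3. The gene models called lower went the other way, from 12.04%, 14.5% and 13.4% to 4.10%, 4.24% and 4.13%. These shares describe the same libraries that gave the calls. Without medium cap 2 fewer gene models were called, and those called higher held on average 3.60% of the reads of medium caps and 13.2% of those of late caps. Those called lower held 2.39% of the reads of late caps without medium cap 2, and 2.71%, 2.60% and 2.62% without late cap 1, 2 or 3. A few gene models carried much of the exchange, since the 10 largest gains made up 32.5% of all CPM gained and the 10 largest losses 40.4% of all CPM lost. No gene model went from at most 3 reads in each library of a stage to a mean of 1 CPM or more in the other, so at this depth no gene model of that level was switched fully on or off.

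Large changes are ranked here among called gene models without overlap of libraries and with at least 10 CPM in the higher group. The largest such rise was that of gene model 705170, for which no function was annotated. It was at 0.149, 0.585 and 0.148 CPM in medium caps and at 14.3, 15.8 and 15.5 CPM in late caps. All late caps lay far above all medium caps, and the log2 fold change was 5.67 ± 0.60 (SE, edgeR adjusted p = 1.16e-05). A pair of protein-tyrosine phosphatases, enzymes that take phosphate off tyrosine residues, came next. Gene model 183494 was at 4.12, 1.87 and 11.9 CPM in medium caps and at 261, 164 and 166 CPM in late caps. Gene model 673052 was at 8.58, 5.54 and 22.3 CPM in medium caps and at 452, 309 and 303 CPM in late caps. In both, medium cap 3 was the highest of the medium caps and late cap 1 the highest of the late caps, without overlap. Their log2 fold changes were 5.05 ± 0.64 and 4.87 ± 0.49 (SE, edgeR adjusted p = 4.95e-05 and 8.59e-06).

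Gene model 330474, with the fold of L-aspartase and its relatives, many of which release ammonia or other small groups from their substrates, rose from 0.487 ± 0.101 CPM to 10.005 ± 1.24 CPM. Gene model 604520 rose from 1.72 ± 0.593 CPM to 30.3 ± 7.99 CPM, with late cap 1 the lowest late cap. Its annotations name both a beta-1,6-N-acetylglucosaminyl transferase and a lipase, which are different activities, so its role is not settled by them. Gene models 682272, 660316 and 585766, without annotated function, rose by 4.83, 4.34 and 4.14 on the log2 scale. For gene model 660316 the medium caps were at 26.9, 25.5 and 3.40 CPM and the late caps at 462, 348 and 318 CPM. Medium cap 3 was low here, unlike for the phosphatases, and even the highest medium cap lay well below the lowest late cap.

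Among the falls, gene model 706368, without annotated function, stood out by size and level. It went from 744, 886 and 1155 CPM in medium caps to 10.9, 15.8 and 15.5 CPM in late caps. The groups were far apart, and the log2 fold change was -6.05 ± 0.46 (SE, edgeR adjusted p = 1.42e-06). In early caps it had been at 780 CPM on average, close to its level in medium caps. Gene model 483834 encodes an isoprenylcysteine carboxyl methyltransferase, an enzyme that methylates the end of prenylated proteins and that in yeast finishes the mating pheromone a-factor. It went from 316, 483 and 310 CPM to 18.2, 19.5 and 19.5 CPM. Late caps were nearly equal and lay below every medium cap, with a log2 fold change of -4.28 ± 0.40 (SE, edgeR adjusted p = 4.65e-06). A pair of pheromones, peptides of this prenylated kind, also fell. Lbphb (313028) fell from 8.05 ± 2.86 CPM to 1.78 ± 0.412 CPM and Lbphb2 (313030) from 4.72 ± 2.21 CPM to 1.20 ± 0.139 CPM. Both changes passed the test, with edgeR adjusted p = 0.00018 and 0.00103. Of the 5 gene models listed by the domain of mating pheromones, Lbphb among them, 1 rose and 1 fell, and 0 rose on leaving out any late cap, medium cap 1 or medium cap 3.

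Secreted and wall proteins made up much of the rest of the largest falls ranked in this way. LbH11 (180892), a hydrophobin, one of the small proteins that coat aerial fungal surfaces, went from 53.2, 114 and 146 CPM to 7.77, 6.72 and 5.92 CPM. Its level had been 1164 CPM in early caps on average, so the medium caps already lay below the early ones. A small secreted protein (678092) fell from 85.1 ± 18.2 CPM to 4.64 ± 0.287 CPM. Another with a carbohydrate-binding module of family CBM52 (661527) fell from 19.1 ± 6.24 CPM to 1.29 ± 0.0655 CPM. A protein with a WSC domain (508527), which binds carbohydrates and in yeast belongs to sensors of wall stress, fell from 81.2 ± 13.2 CPM to 5.96 ± 1.47 CPM. Gene models 448570, with an NTF2-like fold, and 574881, without annotation, fell by 3.999 and 3.79 on the log2 scale.

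**Figure D2:**
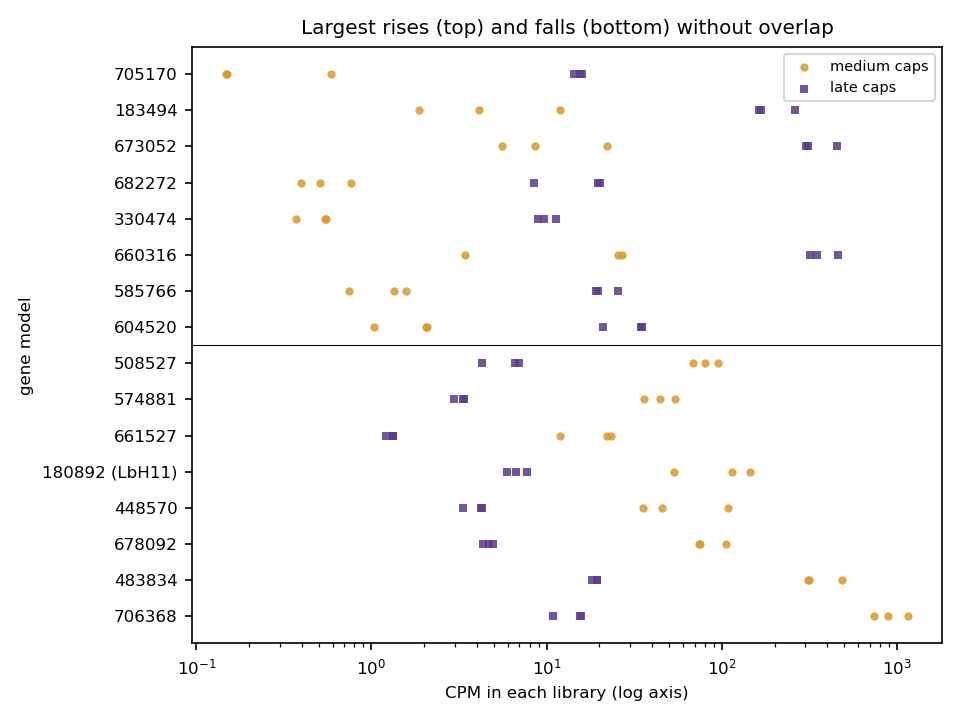
CPM in each library (x axis, log scale) for the 8 largest rises and the 8 largest falls without overlap of libraries and with at least 10 CPM in the higher group (y axis, gene models). Circles are the 3 medium caps and squares the 3 late caps. Gene model 705170 at the top rose from below 1 CPM to about 15.2 CPM, and 706368 at the bottom fell from 928 CPM to 14.0 CPM.

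The gene models that gained the most CPM were mostly without annotated function. The exception was a clitocypin (318727), a member of the mushroom inhibitors of cysteine proteases. It was at 995, 1411 and 783 CPM in medium caps and at 5763, 4937 and 4970 CPM in late caps. The groups were clearly separate, with a log2 fold change of 2.30 ± 0.63 (SE, edgeR adjusted p = 0.00951), though reads may be shared among near-identical clitocypins. Gene model 693754 went from 1116, 553 and 520 CPM to 5409, 4634 and 4609 CPM, and its mean in early caps was 72.1 CPM. Gene model 459717 went from 1241, 543 and 333 CPM to 5028, 4329 and 4306 CPM, from 37.1 CPM in early caps. In both, medium cap 1 was the highest of the medium caps and all late caps lay above it.

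The other large gains were less firm. The largest gain in CPM was that of gene model 662484, at 8032, 4495 and 9914 CPM in medium caps and 17469, 15701 and 15944 CPM in late caps. Its call was lost without medium cap 2, the lowest of the medium caps (log2 fold change 0.92, edgeR adjusted p = 0.0579). Gene model 391051 rose from 5658 ± 1368 CPM to 11489 ± 538 CPM, and without medium cap 2 its log2 fold change was 0.89, below the bound of 1. Gene model 485347 was at 611, 297 and 20.01 CPM in medium caps and at 2573, 3702 and 3643 CPM in late caps. The medium caps of this gene model were spread widely, and without medium cap 2 the edgeR adjusted p was 0.0658. Gene model 293300 rose from 961 ± 731 CPM to 4917 ± 626 CPM, with edgeR adjusted p between 0.0612 and 0.0684 without late cap 1, medium cap 1 or medium cap 3. Gene model 293818 rose from 3568 ± 1396 CPM to 9482 ± 796 CPM, and its call was lost without any of late caps 1 to 3, medium cap 1 or medium cap 3, with an edgeR adjusted p of up to 0.0938.

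Of the losses in CPM, the largest was that of gene model 654325, without annotated function. It was at 10825, 10218 and 10421 CPM in medium caps and at 1328, 1319 and 1236 CPM in late caps. Replicates agreed closely within each stage, and the log2 fold change was -3.02 ± 0.52 (SE, edgeR adjusted p = 0.000436). Gene model 295234 went from 9891, 12645 and 4675 CPM to 590, 1214 and 1124 CPM. Medium cap 3 was lowest of the medium caps and still above every late cap. Gene model 706099, annotated with nucleic acid binding, fell from 2497 ± 1131 CPM to 410 ± 35.5 CPM.

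MISSP19 (295729), named for small secreted proteins induced in mycorrhiza, went from 14629, 9147 and 3369 CPM to 2841, 3732 and 3531 CPM. Here the groups overlapped, as medium cap 3 lay within the late caps, and the call was lost without medium cap 1 (log2 fold change -0.84, edgeR adjusted p = 0.226). It was also lost on leaving out medium cap 2, any late cap or any late stipe, at an edgeR adjusted p between 0.0524 and 0.131. Gene models 190777 (CsbD-like), 641513 (domain DUF4449) and 658987 fell by 2.09, 2.36 and 1.07 on the log2 scale. Medium cap 3 was the highest medium cap in each of these, at 6313, 7401 and 5886 CPM. Without it the log2 fold changes were -1.46, -1.02 and -0.76 and the edgeR adjusted p was 0.111, 0.259 and 0.116, and leaving out any late cap, or for 190777 medium cap 2, also ended the calls. A small secreted protein (294777) fell from 2621 ± 966 CPM to 623 ± 73.5 CPM, but not without late cap 2 or late cap 3 (edgeR adjusted p = 0.0514 and 0.0631).

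Lists of gene models by function were built from the annotation tables at hand, in which 17.5% of the gene models tested rose and 6.57% fell. One of these tables holds transcripts that had been selected as regulated between basidiocarp stages in these libraries. In it 41.3% of the gene models tested rose from medium to late caps and 0.101% fell, against 12.7% and 8.03% of those in the other tables. A list drawn from that table therefore leans towards rises, and where its members change a count much the count without them, termed without the regulated transcripts, is given as well. The list counts are descriptions and were not tested as sets. Where edgeR called no member of a list in a direction, DESeq2 called 0 as well, and between 0 and 4 members had an unadjusted p under 0.05 in that direction.

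**Figure D3:**
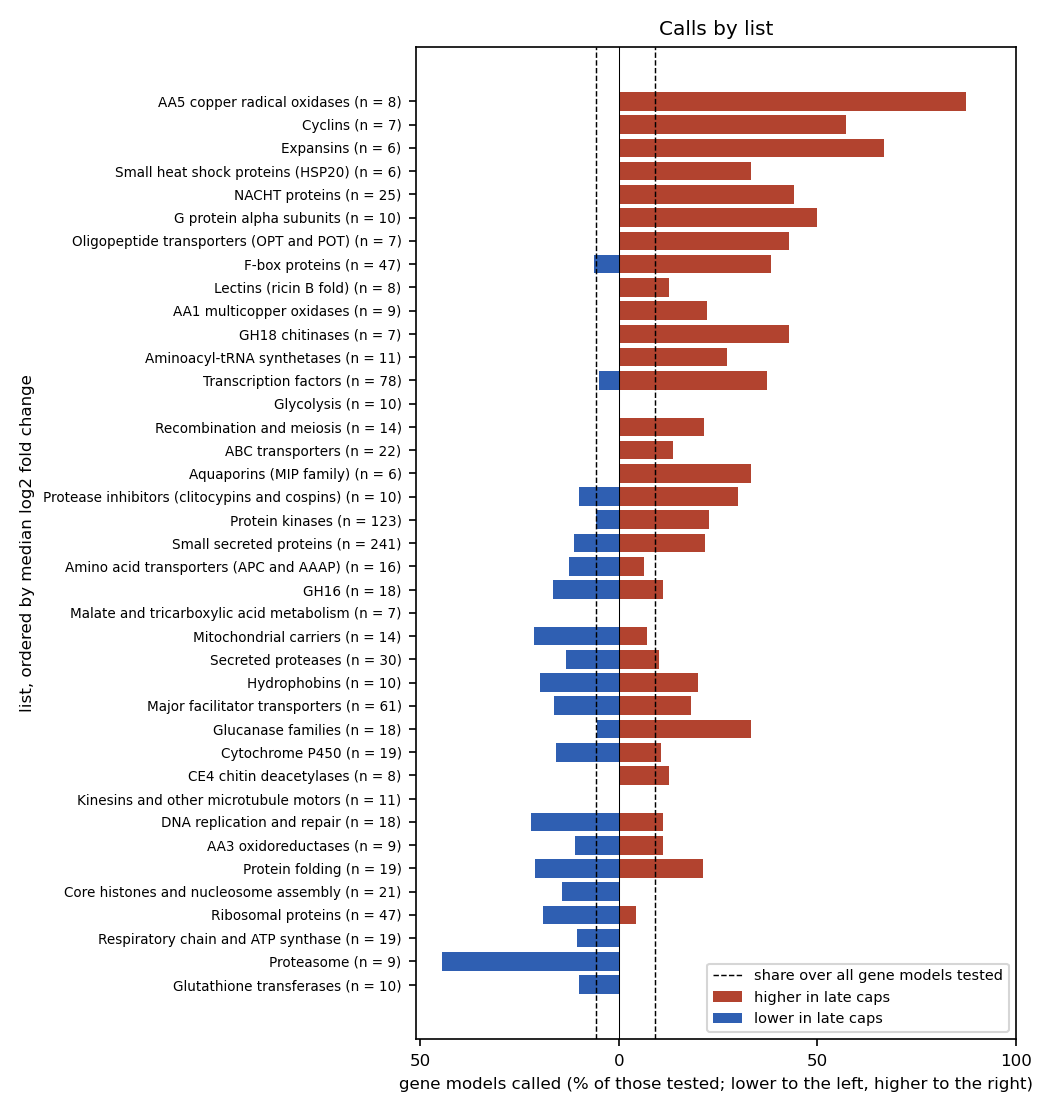
Share of tested gene models called higher (red, to the right) and lower (blue, to the left) in late caps for each list with at least 6 tested members (y axis, ordered by the median log2 fold change). The dashed lines mark 9.17% and 5.81%, the shares over all gene models tested. In the annotation tables from which the lists were drawn the shares were 17.5% and 6.57%. Copper radical oxidases are at the top with 7 of 8 higher, and the proteasome near the bottom with 4 of 9 lower.

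Copper radical oxidases rose nearly throughout. Of the 8 members of this family, AA5, which oxidize aldehydes or alcohols and release hydrogen peroxide, 7 rose and none fell, with a median log2 fold change of 1.77 (6 of 7 rose without the regulated transcripts). Gene model 638550 was at 118, 65.1 and 82.6 CPM in medium caps and at 980, 793 and 772 CPM in late caps. Every late cap was several times above every medium cap, with a log2 fold change of 3.26 ± 0.42 (SE, edgeR adjusted p = 5.20e-05). Gene model 151571 went from 20.1, 13.4 and 17.5 CPM to 160, 135 and 133 CPM, a log2 fold change of 3.07 ± 0.38 (SE, edgeR adjusted p = 4.38e-05). Gene model 312895 rose from 21.0 ± 4.27 CPM to 83.2 ± 7.22 CPM, 457469 from 52.5 ± 25.0 CPM to 238 ± 17.3 CPM, and 582922 from 22.2 ± 6.27 CPM to 53.4 ± 2.81 CPM. Per transcript length, 638550 became the most abundant of the family in late caps, at 395 RPKM, ahead of 460441 at 268 RPKM. In medium caps the order was reversed, at 40.6 and 93.4 RPKM.

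The calls of the other members were less firm. Gene model 460441 rose from 189 ± 126 CPM to 555 ± 59.4 CPM, and its call was lost without late cap 1, medium cap 1 or medium cap 2 (edgeR adjusted p between 0.0704 and 0.102). Gene model 247761 rose from 50.7 ± 19.9 CPM to 112 ± 17.97 CPM, with a log2 fold change of 0.93 without medium cap 2. The member not called, 302157, was at 99.3 ± 22.7 CPM and 160 ± 10.9 CPM (log2 fold change 0.69, edgeR adjusted p = 0.15).

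Expansins, which loosen wall polymers without cutting them and are best known from plants, rose in 4 of 6 cases, with a median log2 fold change of 1.43. Gene model 243825 was at 554, 421 and 635 CPM in medium caps and at 1855, 1720 and 1680 CPM in late caps. Gene model 306030 was at 682, 602 and 543 CPM in medium caps and at 1671, 1403 and 1377 CPM in late caps. Neither overlapped between the stages, and both were abundant at each, with log2 fold changes of 1.71 ± 0.30 and 1.28 ± 0.28 (SE, edgeR adjusted p = 0.000468 and 0.00262). Gene model 323571 rose from 38.5 ± 28.3 CPM to 170 ± 8.59 CPM, and 313260 from 3.09 ± 0.339 CPM to 9.26 ± 0.693 CPM. The summed level of the list went from 1310, 1067 and 1199 CPM to 3712, 3314 and 3231 CPM.

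Enzymes that cut wall polymers were mixed. Of 7 GH18 chitinases, which cut chitin, 3 rose and none fell. Gene model 191848 was at 24.2, 15.2 and 10.9 CPM in medium caps and at 80.3, 70.9 and 69.3 CPM in late caps, a difference of 2.13 ± 0.23 on the log2 scale (SE, edgeR adjusted p = 1.32e-05). Gene models 231399 and 585735 rose from 5.48 ± 2.30 and 5.86 ± 2.48 CPM to 22.5 ± 1.87 and 19.1 ± 2.43 CPM. Of 18 members of the glucanase families GH5, GH12, GH17, GH30, GH72 and GH128, 6 rose and 1 fell, or 3 and 1 of 14 without the regulated transcripts, and the median log2 fold change was -0.094. There were 0 falls on leaving out any late cap, medium cap 2 or 3, late stipe 1 or 3, or medium stipe 2, and 2 falls on leaving out medium stipe 3. The largest rise was that of gene model 387953 of subfamily GH5_9, a family of beta-1,3-glucan-cutting enzymes. It was at 183, 101 and 107 CPM in medium caps and at 772, 648 and 657 CPM in late caps, with a log2 fold change of 2.41 ± 0.30 (SE, edgeR adjusted p = 3.88e-05). GH16 members, which cut or transfer beta-glucans, went both ways, with 2 of 18 higher and 3 lower, or 1 lower without medium cap 2. The rises of GH16 came from the regulated transcripts, and without them none of 15 rose, while on leaving out medium cap 1 there were 4 rises. The largest rise, 239682, was from 3.65 ± 0.657 CPM to 10.8 ± 0.736 CPM and the largest fall, 309729, from 36.8 ± 3.18 CPM to 9.11 ± 0.296 CPM.

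Synthesis of chitin was represented by few gene models. The GT2 member annotated as a chitin synthase (188623) was at 168, 143 and 167 CPM in medium caps and at 392, 354 and 355 CPM in late caps. The replicates were close within each stage, and the log2 fold change was 1.20 ± 0.16 (SE, edgeR adjusted p = 6.03e-05). The other GT2 member that moved was DPM1 (297861), which makes dolichol phosphate mannose for glycosylation of proteins, and it fell from 131 ± 37.4 CPM to 51.5 ± 2.39 CPM. Of 8 CE4 chitin deacetylases, 1 rose (293318), from 44.4 ± 8.59 CPM to 98.96 ± 1.82 CPM. Its call was lost without late cap 1, medium cap 1 or medium cap 2 (edgeR adjusted p between 0.056 and 0.0774).

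**Figure D4:**
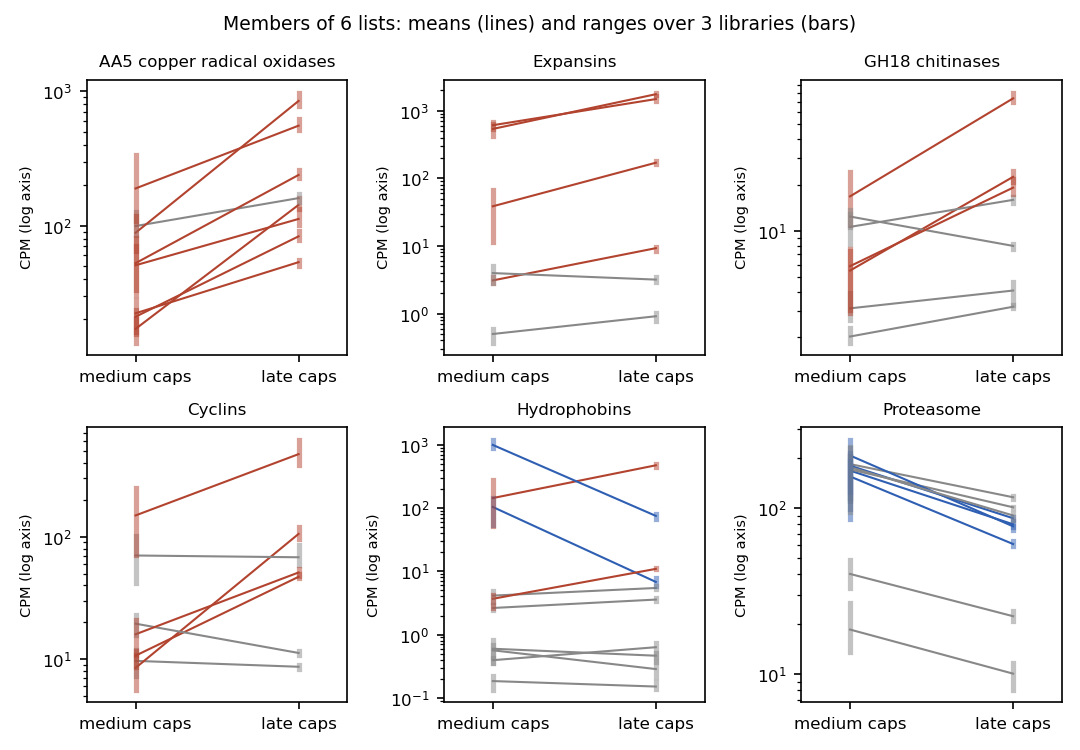
Members of 6 lists in medium and late caps in CPM (y axes, log scale). Lines join the means of a gene model, vertical bars span its 3 libraries, and colour marks the call (red higher, blue lower, grey not called). The AA5 and expansin lines run upwards in 7 of 8 and 4 of 6 members called, hydrophobins cross, and all 9 proteasome lines run down, 4 of them called.

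Hydrophobins went both ways, with 2 of 10 higher and 2 lower, or 1 higher on leaving out any late cap, medium cap 2 or medium cap 3. Gene model 624234, the most abundant of them in medium caps, went from 883, 1211 and 914 CPM to 68.2, 80.6 and 77.7 CPM. No late cap came near a medium cap, and the log2 fold change was -3.73 ± 0.39 (SE, edgeR adjusted p = 1.03e-05). LbH1 (399293) rose from 3.68 ± 0.888 CPM to 10.9 ± 0.148 CPM. LbH14 (318421) was at 284, 96.6 and 53.1 CPM in medium caps and at 504, 473 and 455 CPM in late caps. Its late caps lay above its medium caps, but the call was lost without any one of the late caps, medium cap 2 or medium cap 3 (edgeR adjusted p between 0.0507 and 0.106). Per transcript length LbH14 was at 622 RPKM in late caps, against 110 RPKM for 624234 and 13.9 RPKM for LbH11, while in medium caps 624234 was at 1449 RPKM and LbH14 at 180 RPKM.

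Of 241 small secreted proteins, 52 rose and 27 fell, with a median log2 fold change of 0.21. Together they took 126052, 107531 and 67152 CPM in medium caps and 100985, 104640 and 103398 CPM in late caps, so that their sum did not separate the stages. The largest rise was that of a protein with a CFEM domain (305233), a cysteine-rich fold of fungal surface proteins. It was at 8.72, 6.81 and 2.27 CPM in medium caps and at 116, 72.8 and 71.4 CPM in late caps, a difference of 3.87 ± 0.84 on the log2 scale (SE, edgeR adjusted p = 0.00238). Of the gene models tested, 332 had a symbol in RefSeq, and 6.93% of these rose and 5.72% fell. Among the 20 with a symbol of the MISSP series, 6 rose and 3 fell, a family chosen after values were seen. The falls include MISSP19, whose groups overlapped, and MISSP17.8 (332226), at 0.297 CPM in medium and 0.0214 CPM in late caps on average. The call of MISSP17.8 was lost without late cap 1 (edgeR adjusted p = 0.0553). Without medium cap 2 the rises of MISSP32.1 (300377) and MISSP23.6 (328309) shrank to log2 fold changes of 0.82 and 0.84, below the bound. MISSP23.4 (293729) rose from 540 ± 295 CPM to 1829 ± 314 CPM and MISSP16.5 (327918) from 1.51 ± 0.384 CPM to 8.18 ± 0.641 CPM. MISSP22.4 (303456) fell from 69.0 ± 8.48 CPM to 22.7 ± 0.442 CPM.

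Secreted proteases as a list did not lean towards rises, though some single rises were large. Over all gene models tested, 9.17% rose and 5.81% fell, and in the annotation tables without the regulated transcripts 12.7% and 8.03%. Of 30 secreted proteases, 3 rose and 4 fell, with a median log2 fold change of 0.11. Without any one of the late caps or medium cap 2, 2 fell. LbPR_A12 (191659), a pepsin-like aspartic protease, was at 610, 288 and 166 CPM in medium caps and at 2850, 2620 and 2576 CPM in late caps. It was at 47.1 CPM in early caps, and the rise from medium to late caps was 2.92 ± 0.51 on the log2 scale (SE, edgeR adjusted p = 0.000518). A subtilase (481040), a serine protease, went from 18.7, 8.41 and 5.77 CPM to 131, 111 and 107 CPM, a log2 fold change of 3.40 ± 0.38 (SE, edgeR adjusted p = 1.66e-05). LbPR_A1 (302848) rose from 9.41 ± 5.63 CPM to 44.6 ± 6.66 CPM. The largest fall among proteases, a pepsin-like enzyme (608373), was from 161 ± 57.8 CPM to 54.5 ± 4.04 CPM.

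Of 10 clitocypins and cospins, inhibitors of cysteine and serine proteases, 3 rose and 1 fell. Besides the abundant 318727, gene model 326016 went from 26.7, 14.7 and 3.38 CPM to 123, 164 and 168 CPM. Gene model 293826 went from 427, 488 and 164 CPM to 1203, 1189 and 1193 CPM. Late caps lay above medium caps in both, with medium cap 3 the lowest library. A neighbour by number, 326015, fell from 10.8 ± 3.62 CPM to 3.01 ± 0.00214 CPM (log2 fold change -1.84, edgeR adjusted p = 0.0119).

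Some oxidases of phenols rose, but most of family AA1 were not called. Of 9 multicopper oxidases of this family, 2 rose and none fell. Without the regulated transcripts 1 of 8 rose, beside a share of 12.7% in those tables. On leaving out medium cap 2 there was 1 rise, and on leaving out medium cap 3 there were 4. The list summed to 467, 175 and 236 CPM in medium caps and to 256, 256 and 254 CPM in late caps. The laccase lcc7 (399750) was at 197 CPM in medium and 97.1 CPM in late caps on average, and was not called (log2 fold change -1.02, edgeR adjusted p = 0.138). The laccase lcc10 (399752) was at 15.8, 8.58 and 11.4 CPM in medium caps and at 60.4, 62.8 and 59.6 CPM in late caps. The late caps agreed closely, and the log2 fold change was 2.35 ± 0.34 (SE, edgeR adjusted p = 0.000123). The other laccase called, lcc4 (399746), rose from 10.2 ± 2.65 CPM to 21.8 ± 2.94 CPM, but not without medium cap 2 (log2 fold change 0.95, edgeR adjusted p = 0.0623). R3 (185727), with a tyrosinase copper site, of the enzymes that make quinones and pigments from phenols, was at 237, 138 and 106 CPM in medium caps and at 665, 657 and 650 CPM in late caps. Its mean in early caps was 19.3 CPM, and the log2 fold change from medium to late caps was 2.03 ± 0.33 (SE, edgeR adjusted p = 0.00028). R1 (295069), of the same kind, was at 229, 28.8 and 31.4 CPM and then at 416, 644 and 644 CPM, and its call was lost without any one of the late caps, medium cap 2, medium cap 3, late stipe 1 or late stipe 3 (edgeR adjusted p between 0.0507 and 0.147).

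LbCu/ZnSOD (303799), a superoxide dismutase, which turns superoxide into hydrogen peroxide, was at 8.62, 3.10 and 2.84 CPM in medium caps and at 55.7, 49.6 and 46.6 CPM in late caps. The log2 fold change was 3.37 ± 0.56 (SE, edgeR adjusted p = 0.000355). LbMsrA (253748), a methionine sulfoxide reductase, which repairs oxidized methionine, went the other way, from 770, 598 and 427 CPM to 185, 186 and 184 CPM. Most redox proteins with a RefSeq symbol did not pass the test, with 1 of 29 higher and 1 lower. Cytochromes P450, oxygenases of many small molecules, went both ways with 2 of 19 higher and 3 lower, 1 of the rises being among the regulated transcripts only. Gene model 323171 was at 105, 54.7 and 99.3 CPM in medium caps and at 800, 684 and 692 CPM in late caps, and 679472 fell from 59.7 ± 16.1 CPM to 14.6 ± 1.07 CPM. The median log2 fold change of 10 glutathione transferases, detoxifying enzymes, was -1.31, but only 616925 was called, from 102 ± 37.7 CPM to 20.1 ± 2.35 CPM. On leaving out medium cap 3, medium stipe 1 or medium stipe 2 there were 2 falls in this list, and on leaving out medium stipe 3 there were 7. Among 9 AA3 oxidoreductases, 684961 rose from 2.49 ± 2.01 CPM to 14.9 ± 3.03 CPM and 448758 fell from 304 ± 113 CPM to 101 ± 1.96 CPM, with 2 falls on leaving out late cap 3, medium cap 1 or medium cap 2.

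Proteasome and ribosomal protein gene models were called lower more often than higher. All 9 proteasome gene models, parts of the complex that degrades marked proteins, had negative changes, and 4 of them passed, or 2 without medium cap 1 or medium cap 2. Gene model 241730 was at 240, 259 and 125 CPM in medium caps and at 77.0, 78.0 and 78.7 CPM in late caps, a difference of -1.42 ± 0.26 on the log2 scale (SE, edgeR adjusted p = 0.000618). Medium cap 3 was well below medium caps 1 and 2 and still above the late caps. Gene model 291793 fell from 156 ± 60.1 CPM to 60.9 ± 2.12 CPM. For 188567 and 189495 the fall shrank to a log2 fold change between -0.99 and -0.86 without medium cap 1, medium cap 2 or 1 of the late caps (late cap 1 for 188567, late cap 2 for 189495).

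Of 47 ribosomal protein gene models, 9 fell and 2 rose, and the median log2 fold change was -0.72. On leaving out medium cap 2 there were 4 falls, and on leaving out medium cap 3 there were 16. Ribosomal protein L5 (678398) went from 817, 1093 and 374 CPM to 250, 305 and 292 CPM, a log2 fold change of -1.43 ± 0.35 (SE, edgeR adjusted p = 0.00483). The list summed to 6175, 7444 and 3604 CPM in medium caps and to 3433, 3742 and 3595 CPM in late caps. Medium cap 3 lay among the late caps on this sum, which therefore overlapped between the stages. Core histones were called lower in 3 of 21 cases and higher in none, with sums of 3325, 3558 and 1923 CPM against 1913, 1989 and 1878 CPM. Without medium cap 3, 6 histones were called lower. The histone H3 gene HTR16201 (246331) fell from 28.6 ± 10.03 CPM to 9.95 ± 0.226 CPM. The histone H4 gene HFO16203 (191150) fell from 293 ± 105 CPM to 139 ± 7.92 CPM, and without medium cap 1 or medium cap 2 its log2 fold change was -0.97 and -0.79. Of 3 septins, which form scaffolds at sites of septation and growth, 1 fell (189236), from 788, 842 and 513 CPM to 245, 256 and 253 CPM.

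Few gene models of energy metabolism were called. None of 10 glycolysis gene models and none of 7 of malate and tricarboxylic acid metabolism were called in either direction, though 4 and 2 of them were higher at an unadjusted p under 0.05. Of 19 gene models of the respiratory chain and ATP synthase, 2 fell and none rose, though the median log2 fold change was -0.93. The number of falls was 0 without medium cap 2, 1 on leaving out late cap 1 or late cap 2, and 4 on leaving out late cap 3. None of 11 kinesins and other microtubule motors were called, and none of 5 ammonium transporters.

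Of 7 cyclins, regulators of the cell cycle and of other kinases, 4 rose and none fell. Gene model 449618, a cyclin of the PHO80 type, which in yeast acts in the response to phosphate, was at 10.8, 5.62 and 9.08 CPM in medium caps and at 121, 95.8 and 99.4 CPM in late caps. The log2 fold change was 3.63 ± 0.51 (SE, edgeR adjusted p = 9.62e-05). Gene model 489029 rose from 10.7 ± 1.81 CPM to 47.1 ± 2.20 CPM, 583039 from 15.98 ± 4.94 CPM to 51.1 ± 3.19 CPM, and 658958 from 149 ± 91.9 CPM to 472 ± 127 CPM. Of 18 gene models of DNA replication and repair, 2 rose and 4 fell, or 1 and 4 of 16 without the regulated transcripts. On leaving out late cap 2, late cap 3 or medium cap 2 there was 1 rise. Of 14 of recombination and meiosis, 3 rose and none fell, with a median log2 fold change of 0.48. The largest of these rises, 617376, was from 0.0371 ± 0.0392 CPM to 0.872 ± 0.238 CPM, and its annotation is that of an integrase of phage type, not of a meiotic protein.

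Small heat shock proteins (HSP20), chaperones that hold unfolded proteins, had a median log2 fold change of 1.41, and 2 of 6 rose. Gene model 384818 was at 137, 73.2 and 158 CPM in medium caps and at 805, 659 and 646 CPM in late caps, and 324106 at 41.8, 32.5 and 20.7 CPM and then at 99.9, 92.1 and 92.3 CPM. DESeq2 gave no adjusted p for 384818, so that it called 1 of the 6, while on leaving out medium stipe 3 edgeR called 5. Their log2 fold changes were 2.52 ± 0.58 and 1.58 ± 0.26 (SE, edgeR adjusted p = 0.00321 and 0.00035). The wider list of protein folding had 4 of 19 higher and 4 lower, or 2 lower without medium cap 2. A peptidyl-prolyl isomerase of the FKBP type (705715) rose the most in it, from 155, 81.5 and 25.9 CPM to 514, 562 and 565 CPM. Of 11 aminoacyl-tRNA synthetases, which load tRNAs, 3 rose and none fell, or 1 of 5 without the regulated transcripts. Aspartyl-tRNA synthetase (710040) rose from 17.3 ± 3.50 CPM to 86.7 ± 3.12 CPM.

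Transcription factors rose more often than they fell, with 29 of 78 higher and 4 lower and a median log2 fold change of 0.54. Their labels came only from the list of transcripts higher in basidiocarps or mycorrhiza than in free-living mycelium. Leaving out the regulated transcripts therefore could not change these counts, and says nothing on how firm they are. Late and medium caps were among the basidiocarps of that list, so the members were in part chosen by the libraries compared. How far this favours rises was not tested. Of all gene models in the tables other than that of the regulated transcripts, 12.7% rose and 8.03% fell. Without medium cap 2, 18 of the factors rose. They are named after their relatives in other fungi, and the roles given are those of the relatives. LbAbaA (298274), whose relative in *Aspergillus* acts in the building of spore-bearing structures, was at 5.93, 3.22 and 17.8 CPM in medium caps and at 135, 99.6 and 97.6 CPM in late caps. Its level in early caps, 85.7 CPM on average, was close to that in late caps, so the medium caps were the low point of the 3 stages. The log2 fold change from medium to late caps was 3.63 ± 0.70 (SE, edgeR adjusted p = 0.00106). LbMedA-2 (483117), also related to a regulator of spore formation in *Aspergillus*, was at 10.3, 6.61 and 7.08 CPM in medium caps and at 58.2, 51.6 and 49.2 CPM in late caps, a difference of 2.73 ± 0.21 on the log2 scale (SE, edgeR adjusted p = 1.42e-06).

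Among the called factors were 3 relatives of *Aspergillus* regulators of sexual development. NsdD1 (668080) was at 18.2, 13.3 and 24.8 CPM in medium caps and at 104, 87.0 and 83.0 CPM in late caps. LbNsdD (585421) rose from 38.2 ± 24.7 CPM to 96.5 ± 10.4 CPM and LbNosA (668161) from 60.2 ± 11.9 CPM to 157 ± 9.09 CPM. All 3 passed the test without overlap of libraries, with edgeR adjusted p = 4.65e-06, 0.00341 and 0.00469. Other called factors are relatives of yeast regulators of growth and stress. LbSFP1 (691497), named after a regulator of ribosomal genes, rose from 51.0 ± 41.0 CPM to 186 ± 28.6 CPM. LbMSN4 (681767), LbCrz1-2 (636734) and LbSkn7 (582197), named after factors of the responses to stress, calcium and oxidation, rose by 1.17, 1.15 and 1.06 on the log2 scale. LbAbf2 (294914), named after a protein that packs mitochondrial DNA, rose by 1.15.

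The rises of LbCreA (443509), named after the carbon repressor of *Aspergillus*, of LbFst3 (585149), named after a regulator of mushroom formation in *Schizophyllum commune*, and of LbMcm1 (522619), a MADS box factor, were 1.06, 1.03 and 1.01 on the log2 scale. All 3 fell below the bound of 1 without medium cap 2, at 0.87, 0.77 and 0.87. LbCreA did so also without medium cap 1 (0.94), LbFst3 without medium cap 1 (0.93) or late cap 1 (0.98), and LbMcm1 without late cap 1 (0.93). LbCon7 (292045), named after a regulator of spore shape in a plant pathogen, fell. It was at 49.3, 47.5 and 188 CPM in medium caps and at 19.1, 17.5 and 18.004 CPM in late caps, with medium cap 3 far above the rest and a log2 fold change of -2.38 ± 0.51 (SE, edgeR adjusted p = 0.00211). LbMetR-2 (490310), named after a regulator of sulfur metabolism, fell by 1.05, and its change was -0.95, -0.97 and -0.83 on leaving out late cap 1, medium cap 1 or medium cap 2.

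In the lists of kinases, F-box proteins and NACHT proteins most members were not called, and the calls were more often rises than falls. The same held for all gene models in the annotation tables, of which 17.5% rose and 6.57% fell. In the tables other than that of the regulated transcripts these shares were 12.7% and 8.03%. Of 123 protein kinases, 28 rose and 7 fell, or 21 and 7 of 105 without the regulated transcripts. The largest rise, a kinase annotated as a tyrosine kinase (335202), was from 0.631, 0.585 and 0.617 CPM to 6.05, 7.58 and 7.53 CPM. LbPKC1 (309070), a protein kinase C, which in yeast guards the integrity of the wall, rose from 118 ± 42.5 CPM to 268 ± 21.8 CPM (log2 fold change 1.18, edgeR adjusted p = 0.000983). Of 10 G protein alpha subunits, which relay signals from receptors, 5 rose and none fell, or 1 of 3 without the regulated transcripts. Gene model 314065 was at 25.6, 36.2 and 32.7 CPM in medium caps and at 115, 89.8 and 92.0 CPM in late caps. Gene model 308153 had the larger change but a low level, from 0.833 ± 0.452 CPM to 3.36 ± 0.0743 CPM.

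NACHT proteins, with a nucleotide-binding domain found in fungal proteins of self and non-self recognition, rose in 11 of 25 cases and fell in none. Only 2 of the 25 were annotated outside the regulated transcripts, and both rose. Of all regulated transcripts tested, 41.3% rose and 0.101% fell, so many rises without a fall are no trait of this family. Gene model 452188, with ankyrin repeats, was at 0.216, 0.0390 and 0.0987 CPM in medium caps and at 4.79, 5.49 and 4.79 CPM in late caps, a difference of 5.33 ± 0.51 on the log2 scale (SE, edgeR adjusted p = 5.38e-06). Even so the level stayed low, and the list summed to 59.2, 58.8 and 49.5 CPM in medium caps and to 94.2, 92.9 and 92.9 CPM in late caps. F-box proteins, which choose targets for ubiquitin, rose in 18 of 47 cases and fell in 3, but in 4 and 3 of 17 without the regulated transcripts. Without medium cap 1, 1 fell. Gene model 704262 was at 22.6, 12.5 and 33.6 CPM in medium caps and at 233, 185 and 178 CPM in late caps. AGO16204 (315429), an Argonaute of RNA silencing, rose from 111 ± 32.2 CPM to 297 ± 5.99 CPM.

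Transporters went both ways. The family labels of the transporter lists came only from the list of transcripts higher in basidiocarps or mycorrhiza than in free-living mycelium. Late and medium caps were among the basidiocarps of that list, so members were in part chosen by the libraries compared. How far this favours rises was not tested, and leaving out the regulated transcripts changed none of these counts. Of 61 major facilitator transporters, 11 rose and 10 fell. Gene model 643801, abundant at both stages, was at 665, 712 and 407 CPM in medium caps and at 2357, 1800 and 1803 CPM in late caps. Gene model 482338 rose from 9.97 ± 2.70 CPM to 80.6 ± 11.8 CPM. All 7 oligopeptide transporters, which take up short peptides, lay higher in late caps, and 3 passed the test. The POT member 301981 was at 69.1, 47.4 and 59.0 CPM in medium caps and at 358, 314 and 317 CPM in late caps, a difference of 2.49 ± 0.25 on the log2 scale (SE, edgeR adjusted p = 8.83e-06). The OPT member 250173 rose from 167 ± 45.8 CPM to 352 ± 5.47 CPM, but without medium cap 2 its log2 fold change was 0.92 (edgeR adjusted p = 0.0597). Of 16 amino acid transporters, 1 rose and 2 fell, with 2 rises on leaving out medium cap 1 or medium cap 3. The riser, 245329 of the APC family, was at 8.90, 3.32 and 4.44 CPM in medium caps and at 66.1, 65.3 and 65.2 CPM in late caps, a difference of 3.56 ± 0.43 on the log2 scale (SE, edgeR adjusted p = 3.22e-05).

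Of 22 ABC transporters, 3 rose and none fell, or 1 rose without late cap 1. Gene model 671922 was at 49.0, 27.3 and 53.5 CPM in medium caps and at 523, 463 and 460 CPM in late caps, a difference of 3.48 ± 0.50 on the log2 scale (SE, edgeR adjusted p = 0.000121). Both zinc and iron permeases called, ZIP-A (180140) and ZIP-B (305445), rose. ZIP-A was at 177, 65.6 and 57.8 CPM in medium caps and at 543, 508 and 508 CPM in late caps, and ZIP-B rose from 40.7 ± 14.1 CPM to 98.4 ± 1.87 CPM. Of 6 aquaporins and related channels, 2 rose. Gene model 443240 rose from 16.9 ± 3.97 CPM to 47.8 ± 4.13 CPM. Gene model 456764 rose from 41.2 ± 11.5 CPM to 110 ± 15.2 CPM, but not without late cap 1 or medium cap 3 (edgeR adjusted p = 0.0588 and 0.0551). Fatty acid desaturases went both ways, as FAD12-5 (292603) rose from 277 ± 31.3 CPM to 658 ± 10.5 CPM and FAD12-1 (254799) fell from 59.2 ± 4.77 CPM to 17.5 ± 1.25 CPM.

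The stipes of the same stages, sequenced as other libraries, allowed a comparison of the cap change with that of another tissue. In stipes 1022 gene models rose (6.20%) and 1548 fell (9.39%), so that at the same bound falls outnumbered rises, unlike in caps. Without a minimum fold change falls were more numerous in both tissues, with 2598 gene models higher and 3423 lower in stipes. Of the gene models that rose in caps, 502 also rose in stipes, which is 33.2% of the cap rises and 49.1% of the stipe rises, and 26 fell there. Of those that fell in caps, 406 also fell in stipes, 42.4% of the cap falls and 26.2% of the stipe falls, and none rose there. The median log2 fold change in stipes was 0.68 for the cap rises and -0.89 for the cap falls, against -0.041 over all gene models tested. Among the largest cap changes, 705170 rose by 6.03 in stipes and 330474 by 3.97, and 706368 fell by 3.96 and 678092 by 4.27 on the log2 scale.

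The difference of the changes, late minus medium in caps minus late minus medium in stipes, was tested itself. It was called positive for 906 gene models (5.50%) and negative for 295 (1.79%) by edgeR with Benjamini-Hochberg adjustment. Of the gene models that rose in caps, 398 were among the positive and 8 among the negative, and of those that fell in caps, 74 were among the negative and 23 among the positive. The changes in caps and in stipes are both terms of this difference. A call in either tissue therefore draws the difference in 1 direction, and such overlaps are a description, not separate evidence. A further 319 of the positive differences belonged to gene models that fell in stipes and were not called in caps. With late caps 2 and 3 summed and medium stipes 1 and 2 summed, which were each nearly alike, 421 positive and 87 negative differences were called. Negative differences ranged from 145 without late cap 3 to 475 without medium stipe 3, and were more than 1.5 times away from 295 on leaving out late cap 1, 2 or 3, medium cap 2, late stipe 2, or medium stipe 1 or 3.

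**Figure D5:**
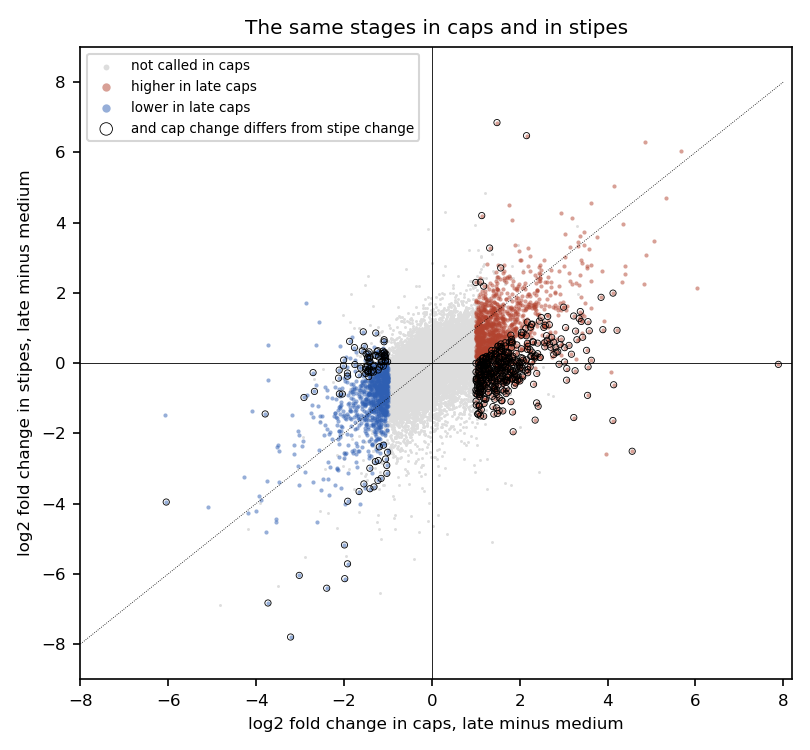
Log2 fold change of late minus medium stage in stipes (y axis) against that in caps (x axis) for each gene model tested. Red and blue points were called higher and lower in late caps, grey points were not called in caps, and black rings mark cap calls whose change also differed from that in stipes. The dotted line marks equal change. Most red points lie right of the line, with a median stipe change of 0.68, and blue points have a median stipe change of -0.89. Red points were chosen by their change in caps, which by itself favours a place right of the line.

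Gene models that rose in caps and not in stipes included several of the families above. For gene model 640381, of a family expanded in *Laccaria*, medium caps were at 80.4, 72.1 and 65.9 CPM and late caps at 713, 933 and 904 CPM, while the stipes were at 150 CPM and then at 79.0 CPM on average. Its change differed between the tissues by 4.47 ± 0.53 on the log2 scale (SE, edgeR adjusted p = 0.000427). For 585766 the difference was 4.76 ± 0.90 (SE, edgeR adjusted p = 0.00486). It was 3.56 and 3.48 for the copper radical oxidases 151571 and 638550, whose family had 6 positive differences in 8 and no rise in stipes. It was 3.55 for the cyclin 449618 and 3.23 for the cytochrome P450 323171. Smaller differences that passed the test were those of the protease LbPR_A12 at 2.39, of R3 at 2.02, of LbMedA-2 at 2.00 and of the glucanase 387953 at 2.15. The protein-tyrosine phosphatases 183494 and 673052 rose in both tissues, and their differences of 1.59 and 1.81 did not pass the test (edgeR adjusted p = 0.199 and 0.062).

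Some falls were deeper in one tissue. For gene model 654325 the cap level of 1294 CPM at the late stage stood against 45.5 CPM in late stipes, and the stipe fall of 6.05 was larger than the cap fall by 3.03 ± 0.69 on the log2 scale (SE, edgeR adjusted p = 0.0124). Gene model 295234 and the hydrophobin 624234 likewise fell further in stipes, by 4.59 and 3.10 on the log2 scale. In the other direction, 706368 fell further in caps, with a difference of -2.09 ± 0.53 (SE, edgeR adjusted p = 0.0205), as did 574881 with -2.34 and the GH16 member 309729 with -1.93. Ribosomal proteins had 14 positive differences in 47, as they fell more in stipes. For proteasome gene models 2 of 9 differences were negative, among them 241730 at -1.55 ± 0.36 (SE, edgeR adjusted p = 0.0127), whose stipe levels were 104 CPM and 114 CPM.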

How the data were processed

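RNA from caps and stipes was sequenced with a stranded mRNA kit as paired reads. The authors trimmed the reads, mapped them to the *L. bicolor* v2 reference transcripts with CLC Genomics Workbench and deposited, per gene model, the count of reads without normalization and an RPKM value that the authors made from it. A read could have several hits, and the sources used here do not give whether the count holds unique or total reads, nor whether strand was used. Near-identical copies (histones, ribosomal proteins, clitocypins) may therefore share reads.

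Only the counts entered the tests, in R 4.3.3 with edgeR 4.0.16 and limma 3.58.1. filterByExpr with the 6 groups kept 16485 gene models. All 18 libraries entered 1 quasi-likelihood model with 6 group means, with TMM scaling and Benjamini-Hochberg adjustment over all gene models tested. The values given as SE were worked back from the test, as the size of the log2 fold change over the square root of its F statistic. The p-values rest on a spread between libraries that was pooled over all 6 groups, not on that of the late and medium caps alone. With only the groups compared in the fit, 1492 gene models rose and 867 fell in caps. On simulated data for this comparison with 16351 gene models, 181 of 200 gene models given a change of 2 on the log2 scale were recovered (90.5%) with 8 false calls, and 157 (78.5%) for the cap minus stipe difference. The simulated libraries were independent, with 1 spread per gene model shared by all 6 groups. In the data the coefficient between replicates ran from 4.02% (late caps 2 and 3) to 38.9% (medium stipes 1 and 3). The simulation therefore does not give the error rates of these data. Alternatives were DESeq2 1.42.0, RLE scaling, TMM without 50 top gene models, other filters, thresholds and fits, and each of the 12 medium and late libraries left out in turn. The 6 early libraries were kept in every such fit.

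Named are the 8 largest rises and falls without overlap of libraries and with at least 10 CPM, the 8 largest gains and losses of CPM, the most abundant member and the largest rise and fall of each of 44 lists, all members of lists of up to 10, gene models and called transcription factors with a name of their own, and the 3 largest cap minus stipe differences each way. Lists came from the annotation in the part of the supplementary tables at hand. Gene models with a RefSeq symbol (assembly V1.0, 6580 matched by number and 351 with a symbol), their 13 families, and the lists without the regulated transcripts were added after values were seen. Members and lists were chosen with earlier results of these data known.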

Additional observations from a re-analysis of the deposited data

Results flagged for a closer look

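The change from medium to late stage differed between caps and stipes, by a test of the difference itself in edgeR's quasi-likelihood model with Benjamini-Hochberg adjustment, for 906 gene models in the positive and 295 in the negative direction. Of the gene models named, 10 had a difference above 3 on the log2 scale. These were 585766 (4.76), 295234 (4.59), 640381 (4.47), the aspartic protease LbPR_A13 (191892, 3.87), the AA5 oxidases 151571 (3.56) and 638550 (3.48), the cyclin 449618 (3.55), the cytochrome P450 323171 (3.23), the hydrophobin 624234 (3.10) and 654325 (3.03). In 6 of them, 585766, 640381, 151571, 638550, 449618 and 323171, the caps rose. In 295234, 654325 and 624234 both tissues fell, the stipes further. LbPR_A13 was not called in caps, with 2636, 1718 and 1205 CPM in medium caps and 2938, 3913 and 3935 CPM in late caps, and fell from 1028 CPM to 136 CPM in stipes.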

How the results depend on the processing

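With a test against a log2 fold change of 1 (glmTreat), 304 gene models rose and 94 fell in caps, 168 and 330 in stipes, and the cap minus stipe difference was positive for 20 and negative for 2. Without a minimum fold change the counts were 2842 and 3346 in caps and 2598 and 3423 in stipes, and 675 negative differences. An adjusted p under 0.01 left 360 positive and 86 negative differences, and summing the nearly alike libraries 421 and 87. Leaving out each of the 12 medium and late libraries in turn gave 1327 to 2063 rises and 548 to 1196 falls in caps, 650 to 1315 positive and 145 to 475 negative differences, and 942 to 1389 rises and 1295 to 1571 falls in stipes. The lowest cap counts came without medium cap 2 and the highest without medium cap 3. The share of reads in gene models called higher ranged from 13.2% to 22.0% in late and from 3.60% to 6.95% in medium caps, and in those called lower from 2.39% to 4.88% and from 8.74% to 14.99%. The AA1 member 399748 and the glutathione transferase 674829, neither called, turned to log2 fold changes of 0.087 and 0.214 without medium cap 1, the highest values on leaving out a library, with the lowest at -2.33 and -3.43 without medium cap 3. Of 167 named gene models called, 124 were called in all 20 alternative fits and 127 whichever of these 12 libraries was left out, with 29, 18 and 13 calls lost on leaving out medium cap 2, 1 and 3.

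Replicate numbers did not pair late and medium caps, as the correlations of their deviations were -0.15, 0.36 and -0.22. With the replicate number as a block, 1503 gene models rose and 914 fell in caps and 823 differences were positive and 247 negative, all within 1.5 times of the counts without it.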

Other observations

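A few gene groups have no part in the comparisons above. Of 14 mitochondrial carriers, which move metabolites across the inner membrane, 1 rose and 3 fell in late caps, and 0 fell without medium cap 2. Of 8 lectins of the ricin B fold, sugar-binding proteins, 1 rose. By DESeq2 there were 2 rises, on leaving out any library but medium stipe 3 there were 2 or 3, and none of the 4 annotated without the regulated transcripts rose. None of 3 GH24 lysozymes were called by edgeR, with 2 of these higher at an unadjusted p under 0.05 and 0 called by DESeq2.

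Of the families gathered by RefSeq symbol after values were seen, 83 chromatin proteins other than histones had 1 rise and 4 falls, 34 of lipid metabolism 1 rise and 2 falls, 15 of N-glycosylation 1 fall, and 15 metal transporters 2 rises and 1 fall. By symbol, 2 of 20 histones and 2 of 6 pheromones and B receptors fell, 2 of 19 proteases rose, and 2 of 7 hydrophobins rose and 1 fell. Of 9 laccases 2 rose, of 7 genes of RNA silencing 1 rose, and 0 of 6 ammonium transporters were called by edgeR.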
